A study of Mus musculus with 45 samples.

Results

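The genes described here were lowered by retinoic acid (RA) late in a time course of mouse organoids treated with its all-trans form, after showing little difference from untreated organoids at first. R1 cells, an established line of mouse embryonic stem cells, were grown into neuroepithelial organoids, and RNAseq counts were collected at day 2 with no RA and then, without RA or with 250 nM RA, at 8 h, 18 h, 30 h, 42 h, 54 h, 66 h and 78 h. Each of the 15 conditions had 3 libraries, all of one cell line, which the labels number as biological replicates, and p-values measure the spread between these libraries. The labels' treatment protocol conflicts with the paper on the dose, giving 250 µM in place of 250 nM, and with the sample titles on some times; the dose of the paper and the times of the titles are used here.

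A gene was taken when its level was well below the untreated level with RA at both 66 h and 78 h, its untreated level at 78 h was 3 CPM (counts scaled by the library's total to a common size, here 1000000) or more, and its level with RA differed little from the untreated level at 8 h and 18 h. In the terms of the rule, d is the difference between log2(mean RA CPM + 0.5) and log2(mean untreated CPM + 0.5); d was at -1 or less at 66 h and 78 h and between -0.5 and 0.5 at 8 h and 18 h, and symbols beginning with Hox were left out. Of 54532 genes in the table, 54409 had a symbol, 12007 reached 3 CPM and 264 of these had d at -1 or less at both late times. Within the 264 were 2 Hox genes, 142 genes that were already below -0.5 at 8 h or 18 h, 30 that were above 0.5 at one of those times and 1 that was below at one and above at the other. The remaining 89 genes met the whole rule, and they are called the late-lowered genes. They comprised 84 protein-coding genes, 4 lincRNAs and 1 polymorphic pseudogene.

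RA is a derivative of vitamin A that binds nuclear receptors at the DNA and changes the transcription of target genes within hours. In the neural tube it is known for giving neural progenitors a hindbrain and spinal identity, and in embryonic stem cells for promoting the exit from pluripotency. The hindbrain is the front part of that territory. The genes followed here include a hindbrain segment regulator, genes of the extracellular matrix and of neurons, and Epha2, which is abundant in pluripotent cells.

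The genes were chosen by their levels at 8 h, 18 h, 66 h and 78 h, so these levels are given as a description and no test was made on them. The libraries of day 2, 30 h, 42 h and 54 h were not used by the rule, and the tests rest on them. Total counts lay between 17298632 and 39688686 per library. The 4 Y-linked genes examined were at 1.24 to 3.43 CPM on average in 6 libraries, and at 22.7 to 89.7 CPM in the other 39. The 6 were a single RA library of 8 h (replicate 3) and every library of 30 h other than RA replicate 2, and the counts at 30 h are therefore given with and without it. Over all genes, RA 30 h replicate 2 and RA 8 h replicate 3 also differed most from the other replicates of their groups. The library numbers also form 2 series: at 30 h RA replicates 2 and 3, and at 54 h untreated replicate 3, belong to the later one. All 9 neuroepithelium markers looked at (among them Sox1, Sox2, Pax6 and Nes) were above 1 CPM in some library at 54 h or 78 h, and their summed level at 54 h was 779 to 928 CPM in untreated and 1300 to 1511 CPM in RA-treated libraries.

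Around the thresholds, Gm47414 (d of -1.01 at 66 h) and Padi3 (d of -1.01 at 78 h) were just inside, and Ell2 (-0.99 at 66 h) and Epha8 (-0.998 at 78 h) just outside. Nme5 was included at 3.03 CPM and Dennd2d left out at 2.94 CPM. Garem2 was inside the early window by less than 0.01, and Deptor likewise, with absolute d of 0.50 at 8 h and 18 h respectively. For 6 genes (Angpt1, Cdh20, Egr2, Gm32061, Gm32255 and Me3) all group means at 8 h and 18 h were below 1 CPM, where the added 0.5 keeps d small, so that a small early difference says little for them.

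Over the 89 genes the median d was -0.11 at 8 h, -0.04 at 18 h, -0.37 at 30 h, -1.17 at 42 h, -1.54 at 54 h, -1.49 at 66 h and -1.44 at 78 h. The summed level of the genes was 2530 to 2571 CPM in the day 2 libraries. In untreated libraries the sum was 3797 to 3821 CPM at 30 h, 3600 to 3757 CPM at 54 h and 3798 to 3988 CPM at 78 h. With RA it was 2402 to 3040 CPM at 30 h, 1094 to 1301 CPM at 54 h and 1129 to 1414 CPM at 78 h. Per kilobase of exon, the mean untreated level at 78 h ranged from 0.19 to 404 CPM, with a median of 3.05.

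**Figure D1:**
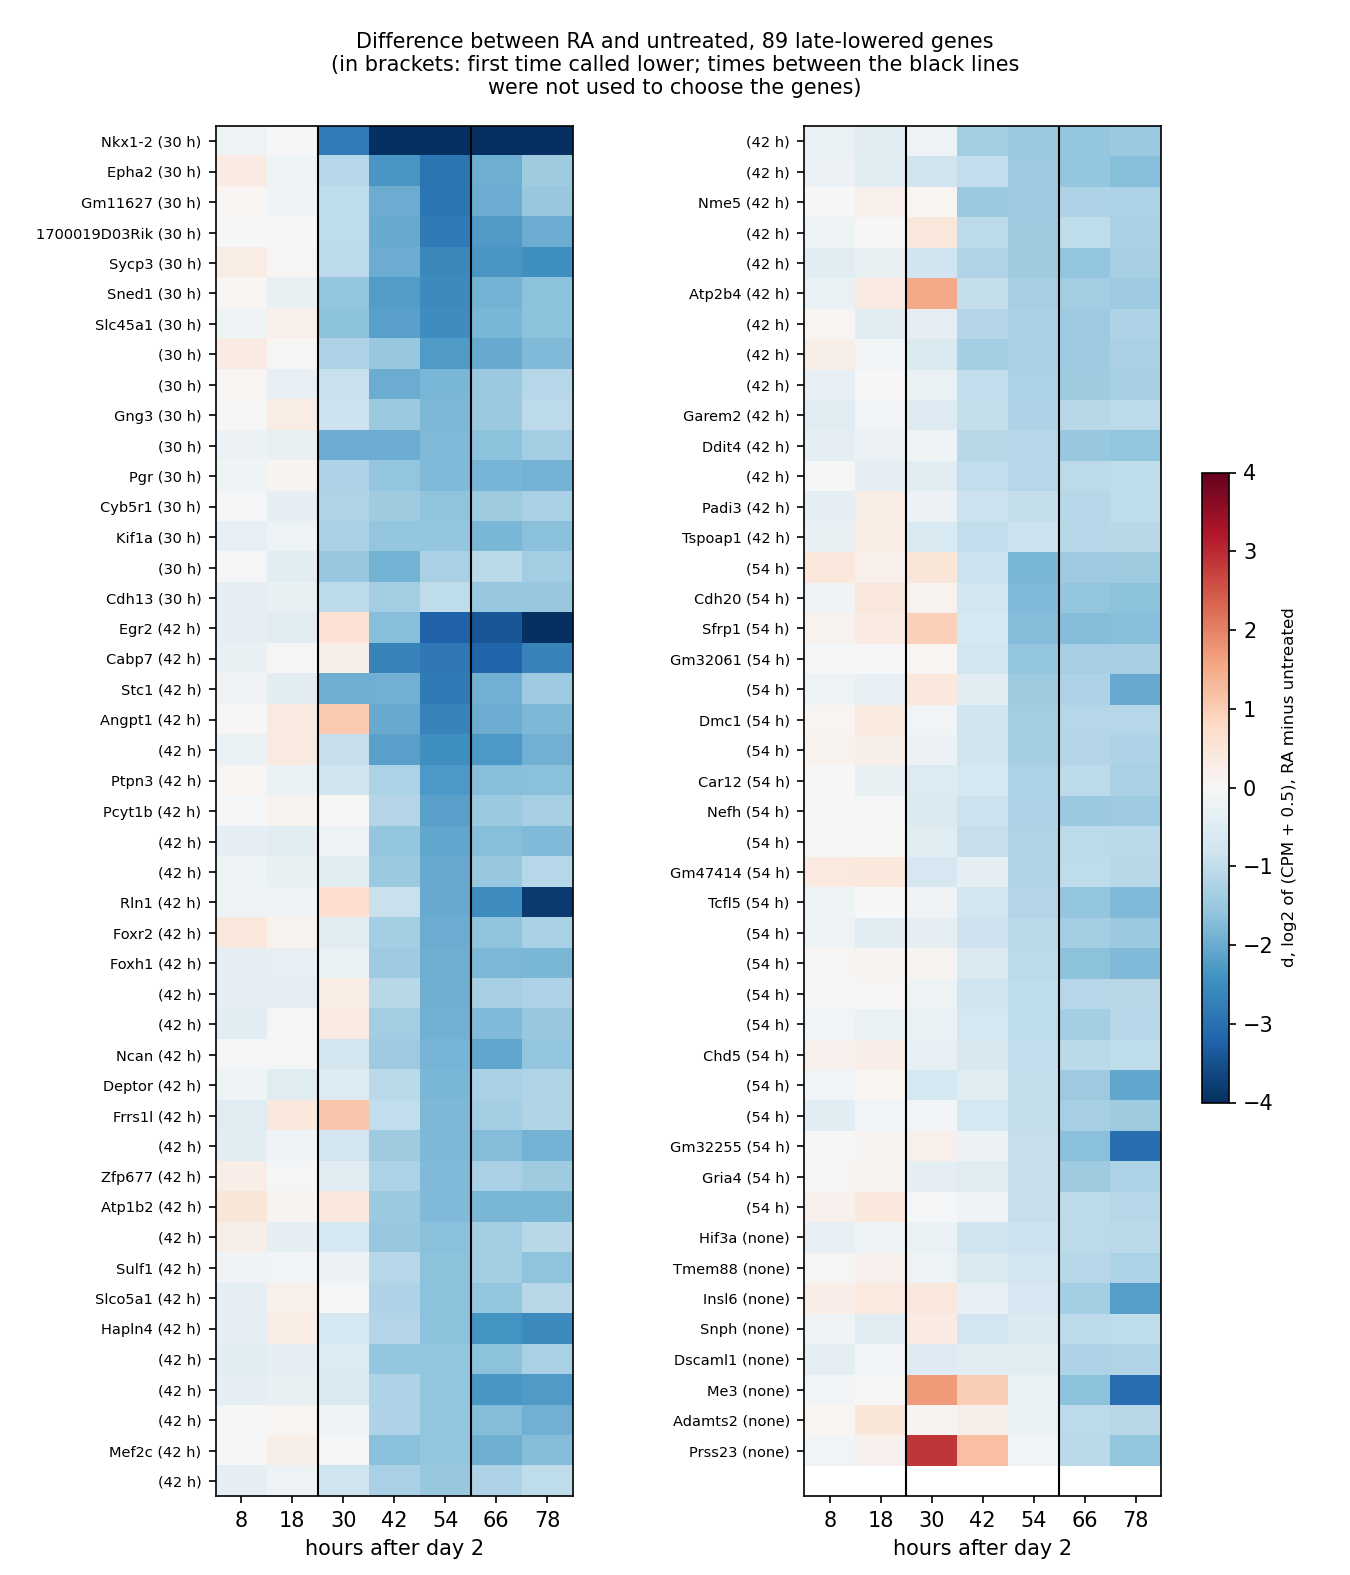
Difference d between RA and untreated organoids (colour, log2 of CPM + 0.5, blue lower with RA, scale ending at 4 in each direction) for each of the 89 late-lowered genes (rows) at each time (columns, hours after day 2), with a name beside the rows of genes named in the text, ordered by the first time at which the gene was called lower (in brackets) and then by d at 54 h. Most rows turn blue between 30 h and 54 h, and Prss23 and Me3 at the foot of the right panel are red at 30 h and 42 h.

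RA-treated and untreated libraries were then compared at the 3 times that the rule had not used. At 54 h, 80 of the 89 genes were lower with RA (edgeR adjusted p under 0.01 and log2 fold change under -1) and 0 were higher (7.17% of all genes), with 86 lower and 0 higher at an unadjusted p under 0.05. Among all 16413 genes tested at 54 h, 5.99% were called lower, and DESeq2 also called 80 of the late-lowered genes. Their median log2 fold change was -1.79, and that of all genes was 0.00. The RA libraries were all below the untreated libraries for 87 of the 89 genes, against 24.9% of all genes. A gene whose untreated level was high enough entered the test even when its RA level was near 0.

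Fewer genes were called at the earlier times. At 42 h, 87 of the genes could be tested and 59 were lower with RA, against 4.96% of all genes, with a median log2 fold change of -1.29; 2 were higher, against 7.49%. At 30 h, 16 of 87 were lower, against 2.48% of all genes, with a median of -0.56, and 4 were higher, against 5.98%. At an unadjusted p under 0.05, 50 of the 87 were lower and 6 higher at 30 h, and the RA libraries were all below the untreated ones for 42, against 15.6% of all genes. Leaving out RA 30 h replicate 2 gave 23 lower genes at 30 h, leaving out untreated 30 h replicates 1 or 2 gave 9 and 8, and a term for the library series gave 7. The 2 genes not tested at 30 h and 42 h were the lincRNA Gm32255 and Gm32061, whose counts were too low there. A gene was first called lower at 30 h in 16 cases, at 42 h in 43 and at 54 h in 22, and 8 were called lower at none of the 3 times.

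The 142 genes that RA had lowered by 8 h or 18 h were ahead of the late-lowered genes at 30 h. Of these 142 genes, 82 were lower at 30 h, 129 at 42 h and 131 at 54 h. Their early levels were used to set them apart, and the lists were not tested against each other.

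**Figure D2:**
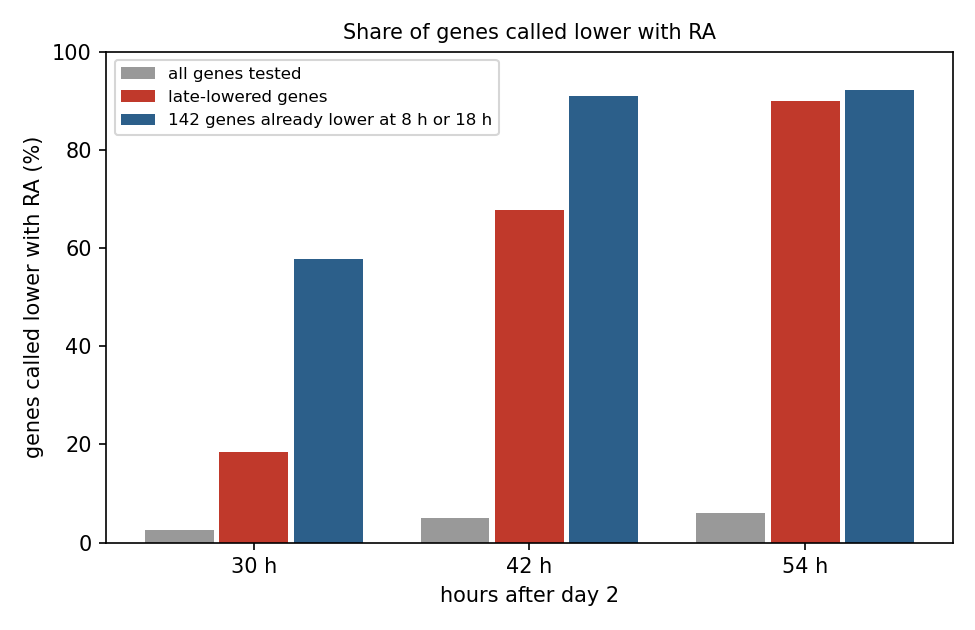
Share of genes called lower with RA (percent, edgeR) at 30 h, 42 h and 54 h for all genes tested, the late-lowered genes and the 142 genes already lower at 8 h or 18 h. The late-lowered genes go from 18.4% at 30 h to 67.8% at 42 h and 89.9% at 54 h, and all genes stay between 2.48% and 5.99%.

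Whether the log2 fold change with RA was lower at 54 h than at 30 h was tested directly as an interaction over the 12 libraries of both times. A gene higher with RA at 30 h, such as Prss23, can be called here without being lower with RA at 54 h. It was called for 33 of the 89 genes in the lower direction and for 0 in the higher direction (0 also at an unadjusted p under 0.05, with edgeR), and DESeq2 called 49 in the lower direction. Among all 17605 genes, 2.67% were called in the lower direction and 1.08% in the higher. The median interaction was -1.16 on the log2 scale. Of the 142 genes already lower at 8 h or 18 h, 37 were called in the lower direction and 0 in the higher, with a median of -0.92. The rule asks for a small d at 18 h and a d of -1 or less at 66 h, so some fall between those times was set by it. All 30 h libraries but RA replicate 2 had low Y-linked levels, and no 54 h library did. Time in this test therefore cannot be told apart from that difference between libraries. The count moved with single libraries of both times: it was 58 without RA 30 h replicate 2, 16 to 20 without 1 of the untreated 30 h libraries, 20 and 21 without untreated 54 h replicates 3 or 2, 22 with a replicate block and 13 with a term for the library series.

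The regulators of transcription included Nkx1-2 and Egr2, the coding genes with the steepest falls at 54 h. Of 11 such genes, 2 were lower at 30 h, 8 at 42 h and 10 at 54 h, with a median log2 fold change at 54 h of -2.07. These groups by role were formed after the values were seen and serve only to order the text. Over all late-lowered genes tested, 18.4% were lower at 30 h, 67.8% at 42 h and 89.9% at 54 h, and no group was tested against these shares.

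Nkx1-2 encodes a homeodomain protein of the late epiblast and the preneural tube, where posterior neural cells are still being formed. The gene lies at chr7:132594878-132599637 on the minus strand of GRCm38. At day 2 its level was 15.1, 13.9 and 13.5 CPM in the 3 libraries. In untreated organoids it was 81.5, 69.1 and 67.8 CPM at 30 h, 91.9, 93.6 and 94.8 CPM at 54 h and 20.2, 26.8 and 24.3 CPM at 78 h. With RA it was 10.03, 9.40 and 10.8 CPM at 30 h, 0.28, 0.88 and 1.91 CPM at 54 h and 1.04, 0.88 and 0.61 CPM at 78 h. At 18 h both arms had been alike, at 29.5, 28.5 and 27.8 CPM without RA and 28.5, 26.4 and 31.0 CPM with RA, as the rule asked. The RA level was highest at that time, the untreated level went on to a higher and later peak, and no RA library overlapped an untreated one from 30 h on. The log2 fold change was -2.99 ± 0.13 (SE, n = 3 against 3, edgeR adjusted p = 2.4e-05) at 30 h, -5.03 ± 0.18 (adjusted p = 9.4e-09) at 42 h and -6.55 ± 0.25 (adjusted p = 1.2e-08) at 54 h. The interaction was -3.55 ± 0.40 (edgeR adjusted p = 1.8e-04), so the gap was wider at 54 h than at 30 h.

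Egr2, also known as Krox20, encodes a zinc-finger factor that marks and specifies rhombomeres 3 and 5 of the hindbrain. It was nearly silent at day 2, at 0.27, 0.41 and 0.15 CPM. Untreated organoids switched it on between 30 h and 42 h, with 3.20, 3.41 and 2.84 CPM at 42 h, 6.94, 8.76 and 10.9 CPM at 54 h and 26.97, 28.7 and 53.4 CPM at 78 h. RA-treated organoids stayed low, at 0.29, 0.40 and 1.21 CPM at 42 h, 0.20, 0.64 and 0.67 CPM at 54 h and 0.66, 0.81 and 0.32 CPM at 78 h. The groups did not overlap at any of these times, and untreated 78 h replicate 3 was the highest. At 54 h the log2 fold change was -4.16 ± 0.31 (edgeR adjusted p = 1.5e-06), and at 42 h it was -2.35 ± 0.38 (adjusted p = 4.6e-04). At 30 h the untreated libraries were at 0.32, 0.35 and 0.39 CPM and the RA libraries at 0.00, 2.00 and 0.31 CPM, the one high value coming from RA replicate 2, the library that also stood apart in its Y-linked genes.

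The lincRNA Gm32255, a neighbour of Egr2 on the other strand, followed a like course at a lower level. It lies at chr10:67496359-67497707 on the minus strand, 37768 bases from Egr2 at chr10:67535475-67542188 on the plus strand. Untreated libraries had 10 to 13 counts at 54 h and 3.74, 2.74 and 4.95 CPM at 78 h, and the RA libraries had 0 counts at 54 h and at most 0.07 CPM at 78 h. Against a floor of 3 counts over the RA group at 54 h, the untreated level was at least 11.9-fold higher. The gene passed the filter on low counts only through its untreated libraries. Other genes with low RA levels at 54 h, such as Egr2, entered the test in that way too, and their p-values are given. For Gm32255 every RA count at 54 h was 0, so the floor is given in place of a p-value. It remains among the genes counted as lower at 54 h.

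Foxh1, a forkhead partner of the Smad proteins in Nodal signalling, had a different course and was picked out after its values were seen. Its level at day 2 was 78.1, 72.2 and 78.8 CPM. In untreated organoids it was 55.5, 56.8 and 52.2 CPM at 30 h, 49.9, 46.8 and 51.6 CPM at 54 h and 37.2, 42.1 and 39.0 CPM at 78 h. With RA it was 43.6, 56.2 and 37.8 CPM at 30 h, 9.51, 13.9 and 13.6 CPM at 54 h and 12.6, 11.9 and 8.11 CPM at 78 h. At 30 h RA replicate 2 lay within the untreated range, and by 42 h the RA libraries were all below. The log2 fold change was -0.40 ± 0.14 (edgeR adjusted p = 0.077) at 30 h, -1.52 ± 0.08 (adjusted p = 1.5e-07) at 42 h and -2.06 ± 0.12 (adjusted p = 3e-07) at 54 h, and the interaction was -1.65 ± 0.21 (adjusted p = 4.6e-04). Regulators lower at 54 h also included Foxr2, Zfp677, Mef2c, Pgr, Tcfl5 and the chromatin remodeller Chd5, with log2 fold changes from -2.41 to -1.09. Hif3a, a hypoxia-inducible factor subunit, was not called at 54 h, at -0.93 ± 0.12 (adjusted p = 8.3e-05), because the fold was under the minimum.

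**Figure D3:**
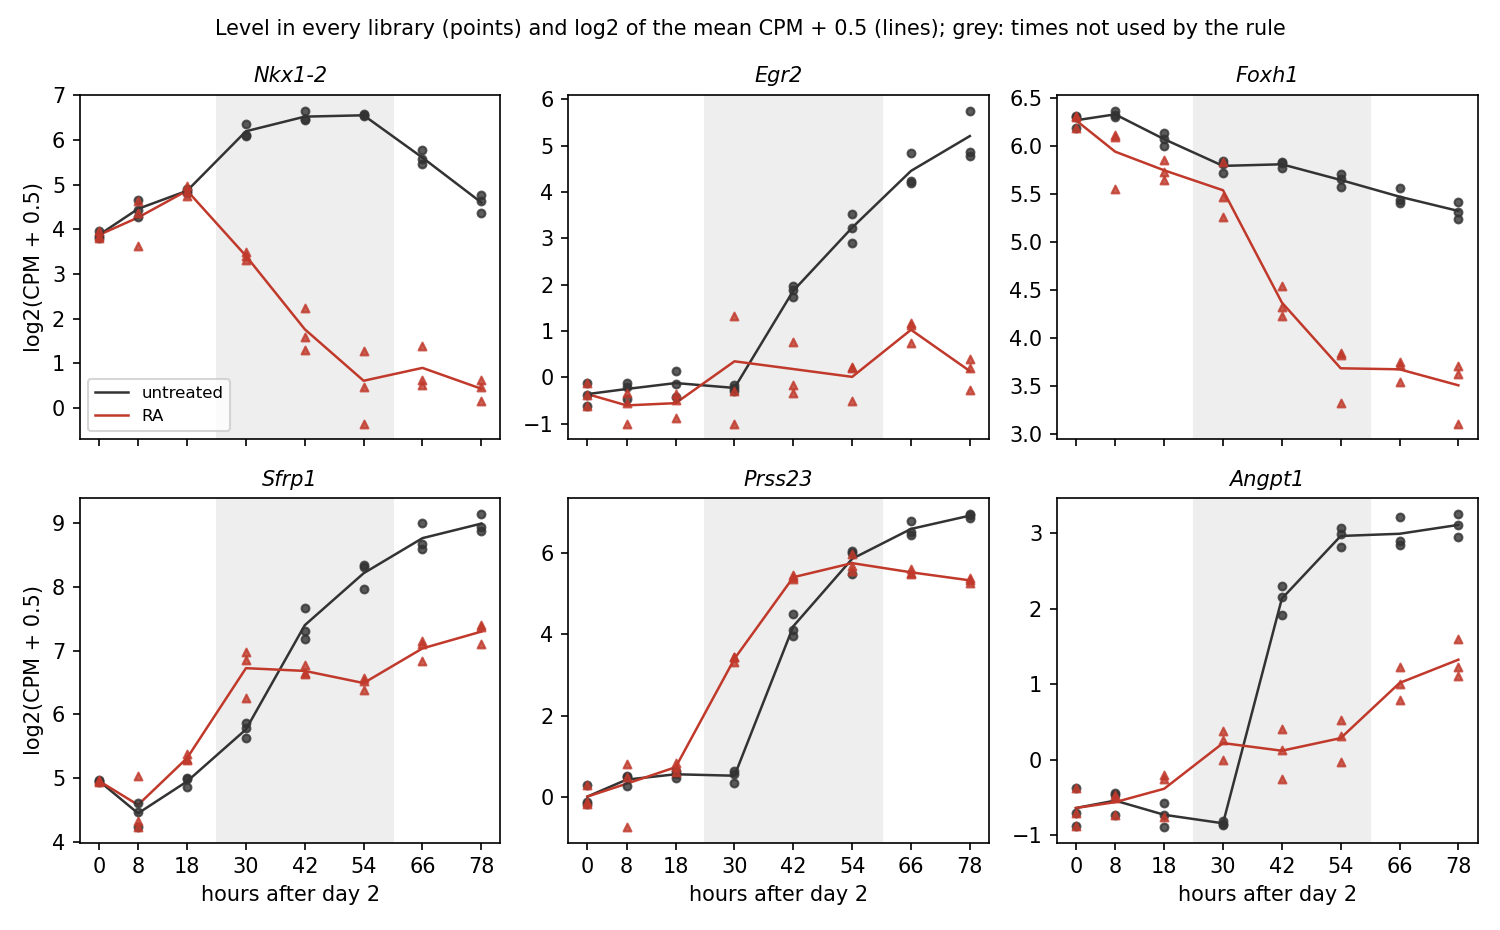
Level of 6 late-lowered genes in every library (points, log2 of CPM + 0.5) against hours after day 2, untreated in black and RA-treated in red, with lines through log2 of the mean CPM + 0.5 and the times not used by the rule in grey. The arms part after 18 h for Nkx1-2 and after 30 h for Egr2, Foxh1 is slightly lower with RA from 8 h and falls steeply after 30 h, and the arms cross for Sfrp1, Prss23 and Angpt1.

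The stretch of 250 bases upstream of the start site is shown for Nkx1-2 and Egr2, the coding genes with the steepest falls at 54 h, and for Prss23, the gene with the most stable early rise with RA. The sequences are those of RefSeq on GRCm38.p6, each 5′ to 3′ on the gene's strand and ending at the base before the start site, with CG pairs in capitals; the RefSeq start of Egr2 lies 24 bases inside the GENCODE gene. They are chr7:132599638-132599887 on the minus strand, chr10:67535249-67535498 on the plus strand and chr7:89527188-89527437 on the minus strand.
Nkx1-2: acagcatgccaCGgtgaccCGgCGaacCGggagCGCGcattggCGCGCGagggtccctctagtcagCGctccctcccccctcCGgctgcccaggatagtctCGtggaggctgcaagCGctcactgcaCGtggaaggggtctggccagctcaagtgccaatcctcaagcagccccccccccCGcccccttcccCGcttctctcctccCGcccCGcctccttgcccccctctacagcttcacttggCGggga
Egr2: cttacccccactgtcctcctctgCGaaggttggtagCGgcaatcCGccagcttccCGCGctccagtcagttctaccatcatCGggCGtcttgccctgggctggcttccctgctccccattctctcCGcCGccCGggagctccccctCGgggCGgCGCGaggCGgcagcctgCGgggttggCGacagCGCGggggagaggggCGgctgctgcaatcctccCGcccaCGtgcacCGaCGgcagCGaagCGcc
Prss23: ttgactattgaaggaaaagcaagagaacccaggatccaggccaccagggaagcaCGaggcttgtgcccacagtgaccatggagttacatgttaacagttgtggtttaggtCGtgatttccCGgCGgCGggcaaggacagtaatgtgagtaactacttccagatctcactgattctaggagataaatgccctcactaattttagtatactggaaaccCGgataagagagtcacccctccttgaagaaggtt
The Egr2 stretch held 26 CG pairs and the Nkx1-2 stretch 19, and the Prss23 stretch held 6, against a median of 8 over 20581 promoters of the same length. As many CG pairs or more were found in 10.98% of those promoters for Egr2, 23.6% for Nkx1-2 and 58.1% for Prss23. On either strand, none of the 3 stretches held AGGTCA (a nuclear receptor half-site, in 12.9% of promoters), TAATTA (a homeodomain core, 4.62%), TGACAG (the Meis and TGIF core, 15.7%), CAGCTG (an E-box, 12.4%) or TATAAA (the TATA box, 12.2%). RefSeq promoters were matched for 59 of the 89 genes, or 66.3%, too few for a comparison over the whole set.

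Among secreted and matrix proteins, 9 of 12 genes were lower at 54 h, 8 at 42 h and 1 at 30 h, with a median log2 fold change at 54 h of -1.90. In untreated organoids 9 of the 12 were higher at 54 h than at day 2, as were 34 of all 89 late-lowered genes and 15% of all genes.

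Sfrp1, a secreted antagonist of Wnt proteins, rose in untreated organoids, from 30.7, 30.2 and 30.9 CPM at day 2 to 468, 491 and 563 CPM at 78 h. With RA it was above the untreated level at 30 h, at 125, 76.2 and 115 CPM against 57.7, 49.2 and 54.8 CPM, and below it at 54 h, at 94.3, 91.0 and 83.0 CPM against 250, 316 and 322 CPM. Neither time showed an overlap, so the arms crossed between them. The log2 fold change was 0.83 ± 0.19 (edgeR adjusted p = 0.016) at 30 h, which was not called, and -1.79 ± 0.10 (adjusted p = 1.7e-07) at 54 h, and the interaction of -2.61 ± 0.24 (adjusted p = 3.9e-05) was called. Both arms were higher at 54 h than at day 2, by 3.17 ± 0.09 log2 units without RA (adjusted p = 1.5e-13) and by 1.39 ± 0.06 with RA (adjusted p = 2.1e-09).

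Sulf1, a sulfatase that trims heparan sulfate and so affects several growth factors, was the other abundant gene of the group. At 54 h it was at 300.2, 316 and 308 CPM without RA and at 73.8, 109.6 and 111 CPM with RA, a log2 fold change of -1.71 ± 0.13 (edgeR adjusted p = 1.8e-06). Its neighbour Slco5a1, 5357 bases away on chromosome 1, was lower by 1.75 log2 units at 54 h. The brain proteoglycan Ncan and Hapln4, which links such proteoglycans to hyaluronan, also lie side by side, 2223 bases apart on chromosome 8, and both were lower at 54 h, at -1.95 ± 0.14 (adjusted p = 1.4e-06) for Ncan. Stc1, a secreted glycoprotein, went from 0.08, 0.27 and 0.31 CPM at day 2 to 11.4, 11.5 and 8.96 CPM at 54 h without RA, and reached only 0.36, 1.18 and 1.61 CPM with RA (log2 fold change -3.36 ± 0.31, adjusted p = 7.8e-06). The hormone gene Rln1 and the matrix protein gene Sned1 were lower by 2.50 and 2.71 log2 units.

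At 30 h 4 genes were called higher with RA. Prss23, which encodes a secreted serine protease, was at 1.06, 0.98 and 0.79 CPM without RA and 10.3, 10.3 and 9.52 CPM with RA at 30 h. At 42 h the untreated libraries had 14.98, 21.97 and 16.6 CPM and the RA libraries 43.2, 40.3 and 41.6 CPM. At 54 h the groups overlapped, at 43.8, 62.8 and 65.1 CPM against 62.5, 50.7 and 46.2 CPM. At 78 h, a time that the rule used, they were at 121, 115 and 123 CPM against 37.6, 40.9 and 40.02 CPM. The log2 fold change was 3.26 ± 0.19 (edgeR adjusted p = 6.5e-05) at 30 h, 1.16 ± 0.12 (adjusted p = 2.0e-05) at 42 h and -0.17 ± 0.14 (adjusted p = 0.34) at 54 h.

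Me3, the gene of a mitochondrial malic enzyme, lies 105205 bases from Prss23 on chromosome 7 and was likewise higher with RA at 30 h and 42 h. With RA it was at 1.07, 1.53 and 1.29 CPM at 30 h against 0.00, 0.12 and 0.05 CPM without; the counts summed over 3 libraries were 120 and 3, a ratio of 28.5 after scaling to library totals with an exact 95% counting interval of 9.53 to 140.3. At 42 h it was at 6.09, 5.62 and 6.07 CPM against 2.76, 3.60 and 1.89 CPM. At 54 h it was not called lower (log2 fold change -0.36 ± 0.20, edgeR adjusted p = 0.15). At 78 h it was at 3.49, 3.57 and 2.91 CPM with RA against 32.5, 28.5 and 32.7 CPM without. Neither gene was called lower with RA at a time that the rule had not used. Both rose steeply from day 2 to 54 h in both arms, by 6.73 ± 0.22 log2 units without RA and 6.56 ± 0.19 with RA for Prss23. The Me3 calls were lost in some settings: at 30 h the adjusted p was 0.024 with a term for the library series and 0.019 without untreated 30 h replicate 3, and at 42 h the log2 fold change was 0.83 without untreated 42 h replicate 3.

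Angpt1, which encodes the angiopoietin that activates the Tie2 receptor, and Atp2b4, which encodes a plasma membrane calcium pump, were also higher with RA at 30 h and lower from 42 h on. For Angpt1 the 30 h levels were 0.07, 0.06 and 0.05 CPM without RA and 0.50, 0.70 and 0.80 CPM with RA, and at 54 h they were 7.87, 6.54 and 7.47 CPM against 0.49, 0.74 and 0.94 CPM. For Atp2b4 they were 7.03, 4.57 and 5.25 CPM against 17.3, 18.7 and 14.9 CPM at 30 h, and 47.1, 49.7 and 45.1 CPM against 16.8, 19.7 and 19.8 CPM at 54 h. Thus the untreated level overtook a nearly flat RA level in both genes. The interaction was -6.61 (edgeR adjusted p = 5.1e-06) for Angpt1 and -2.82 ± 0.21 (adjusted p = 5.1e-06) for Atp2b4. No SE is given for the Angpt1 interaction, because its untreated counts at 30 h were too few to fix its size. The 30 h difference of Angpt1 rests on 62 counts with RA and 4 without, a scaled ratio of 11.1. The exact 95% counting interval was 4.11 to 41.9, which covers counting error only. With a term for the library series, neither the Angpt1 difference (edgeR adjusted p = 0.036) nor that of Atp2b4 (adjusted p = 0.020) was called. Of the 4 genes only Prss23 kept its 30 h call there.

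Ion pumps, channels and transporters formed another group. Of 12 genes, 1 was lower at 30 h, 11 at 42 h and 12 at 54 h, and 7 had a called interaction, with a median log2 fold change at 54 h of -1.79. Atp1b2, a beta subunit of the sodium pump, was at 15.2, 16.4 and 14.4 CPM without RA and 2.83, 4.69 and 5.01 CPM with RA at 54 h (log2 fold change -1.92 ± 0.18, edgeR adjusted p = 7.3e-06). At 30 h its RA libraries, at 11.1, 8.76 and 9.95 CPM, were all above the untreated libraries, at 7.10, 7.23 and 7.71 CPM, and the difference was not called (log2 fold change 0.30 ± 0.15, adjusted p = 0.18). The glutamate receptor subunit gene Gria4 was lower at 54 h by 1.04 log2 units, and Frrs1l, a factor for AMPA receptor assembly, by 1.96. The Gria4 call was lost with library totals and with a term for the library series (adjusted p = 0.013). The sugar transporter gene Slc45a1 was the one of the group lower already at 30 h, at 1.90, 2.43 and 2.43 CPM against 8.23, 9.02 and 7.17 CPM (log2 fold change -1.99 ± 0.19, adjusted p = 4.5e-04).

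Genes of axons, synapses and vesicles included Kif1a, the motor that carries synaptic vesicle precursors, and Nefh, the heavy neurofilament chain. Of 10 genes, 3 were lower at 30 h, 7 at 42 h and 8 at 54 h, and 0 had a called interaction in the edgeR fit. Kif1a was at 298, 319 and 279 CPM without RA and 139, 108 and 120 CPM with RA at 30 h, and at 189, 230 and 194 CPM against 69.2, 68.6 and 71.1 CPM at 54 h. Its log2 fold change was -1.42 ± 0.12 (edgeR adjusted p = 3.1e-04) at 30 h and -1.61 ± 0.08 (adjusted p = 8.8e-08) at 54 h. Cabp7, a calcium-binding protein gene, was at 31.3, 28.3 and 32.5 CPM against 2.75, 4.12 and 4.49 CPM at 54 h (-3.07 ± 0.15, adjusted p = 5.7e-08). At 30 h RA replicate 2 was at 11.3 CPM for Cabp7 and the other RA libraries at 2.67 and 1.57 CPM.

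None of the late-lowered genes is in the list of 10 neuron markers that was looked at beside them. At 54 h 4 of those 10 markers were lower with RA and 0 higher, with a summed level of 441 to 477 CPM without RA and 190 to 202 CPM with RA. At 78 h the sum was 433 to 438 CPM without RA and 621 to 660 CPM with RA, the opposite order. None of the 10 markers was below 1 CPM throughout. In bulk RNA, fewer cells of a type and less RNA per cell cannot be told apart.

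Surface receptors and adhesion molecules numbered 9, with 4 lower at 30 h, 5 at 42 h and 8 at 54 h. Epha2, a receptor for ephrin-A ligands that is abundant in pluripotent cells, was at 107, 119 and 119 CPM without RA and 49.7, 51.2 and 55.9 CPM with RA at 30 h. At 54 h it was at 138, 129 and 135 CPM against 12.9, 19.3 and 19.5 CPM, and at 78 h at 60.6, 64.2 and 52.4 CPM against 25.3, 23.6 and 16.5 CPM. The gap was thus widest at 54 h, with log2 fold changes of -1.27 ± 0.10 (edgeR adjusted p = 1.6e-04) at 30 h and -3.01 ± 0.13 (adjusted p = 2.5e-08) at 54 h. The cadherin genes Cdh20 and Cdh13 were lower at 54 h by 2.66 and 1.55 log2 units; the Cdh13 call, from levels of at most 2.06 CPM, was lost without any of 4 libraries (adjusted p of 0.018 to 0.028). Dscaml1, an adhesion molecule gene, was not called, at -0.54 ± 0.18 (adjusted p = 0.029).

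The 18 genes of signalling and metabolism inside the cell were lower in 1 case at 30 h, 13 at 42 h and 17 at 54 h. Both Ddit4 and Deptor, which encode inhibitors of the mTOR kinase complex, were among them, and they reached their low level by different routes. Ddit4 was at 128, 122 and 143 CPM at day 2, at 427, 418 and 384 CPM at 54 h without RA and at 147, 181 and 224 CPM with RA, so that the untreated organoids rose by 1.54 ± 0.07 log2 units from day 2 (edgeR adjusted p = 1.2e-11). Deptor was at 94.8, 102 and 99.3 CPM at day 2, at 47.8, 46.8 and 39.4 CPM at 54 h without RA and at 12.2, 12.1 and 12.6 CPM with RA, so that both arms fell, by 1.25 ± 0.07 log2 units without RA (adjusted p = 3e-10) and by 3.16 ± 0.06 with RA (adjusted p = 1.1e-11). Between the arms at 54 h the log2 fold change was -1.21 ± 0.13 (adjusted p = 1.7e-05) for Ddit4 and -1.92 ± 0.09 (adjusted p = 5.2e-08) for Deptor. The phosphatase gene Ptpn3, Pcyt1b of phosphatidylcholine synthesis and the reductase gene Cyb5r1 were lower at 54 h by 2.38, 2.24 and 1.68 log2 units, and Cyb5r1 was lower already at 30 h, at -1.35 ± 0.14 (adjusted p = 5.1e-04).

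The meiosis genes Sycp3 and Dmc1, which encode a synaptonemal complex protein and a meiotic recombinase, were lower by 2.78 and 1.59 log2 units at 54 h, from 23.98 and 8.75 CPM in untreated organoids. Of the 15 genes of other or unknown role, 14 were lower at 54 h; the uncharacterized Gm11627 and 1700019D03Rik were the lowest after Gm32255, at -3.46 ± 0.18 (edgeR adjusted p = 1.1e-07) and -2.98 ± 0.16 (adjusted p = 1.4e-07). The 9 genes not called at 54 h were Prss23, Me3, Adamts2, Dscaml1, Snph, Insl6, Tmem88, Hif3a and Tspoap1, with log2 fold changes from -0.17 to -0.96. Adamts2, a procollagen protease gene, was at 3.98, 4.99 and 3.91 CPM against 3.24, 3.51 and 3.70 CPM at 54 h (-0.36 ± 0.17, adjusted p = 0.10), and at 3.74, 4.09 and 4.81 CPM against 1.91, 1.77 and 1.36 CPM at 78 h.

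A gene can end lower with RA because it fell there or because it rose only without RA, and each arm at 54 h was compared with day 2 for this. Both comparisons use the same 3 day 2 libraries, so each is given on its own. In untreated organoids 34 of the 89 genes were higher and 6 lower than at day 2, against 15% and 11% of all genes, with a median log2 change of 0.56. The higher genes included Egr2, Ddit4, Kif1a, Ncan, Atp2b4, Cabp7, Sfrp1 and Stc1, and the lower ones Deptor and Sned1. In RA-treated organoids 46 of the 86 genes tested were lower and 8 higher, against 14.2% and 20.6% of all genes, with a median of -1.14. The lower genes included Foxh1, Epha2, Sulf1, Cyb5r1, Ptpn3 and Deptor, and the higher ones Sfrp1, Angpt1, Prss23 and Me3. The 3 genes too low to test in the RA arm were Gm32255, Gm32061 and Stc1. Nkx1-2 and Slc45a1 were higher without RA and lower with RA, with changes from day 2 of 2.62 ± 0.07 (edgeR adjusted p = 7.7e-14) and -3.92 ± 0.33 (adjusted p = 5.9e-07) for Nkx1-2; the fall of Slc45a1 with RA, -1.28 ± 0.37 (adjusted p = 0.0083), was not called by DESeq2 (adjusted p = 0.011), with library totals or with a term for the library series.

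**Figure D4:**
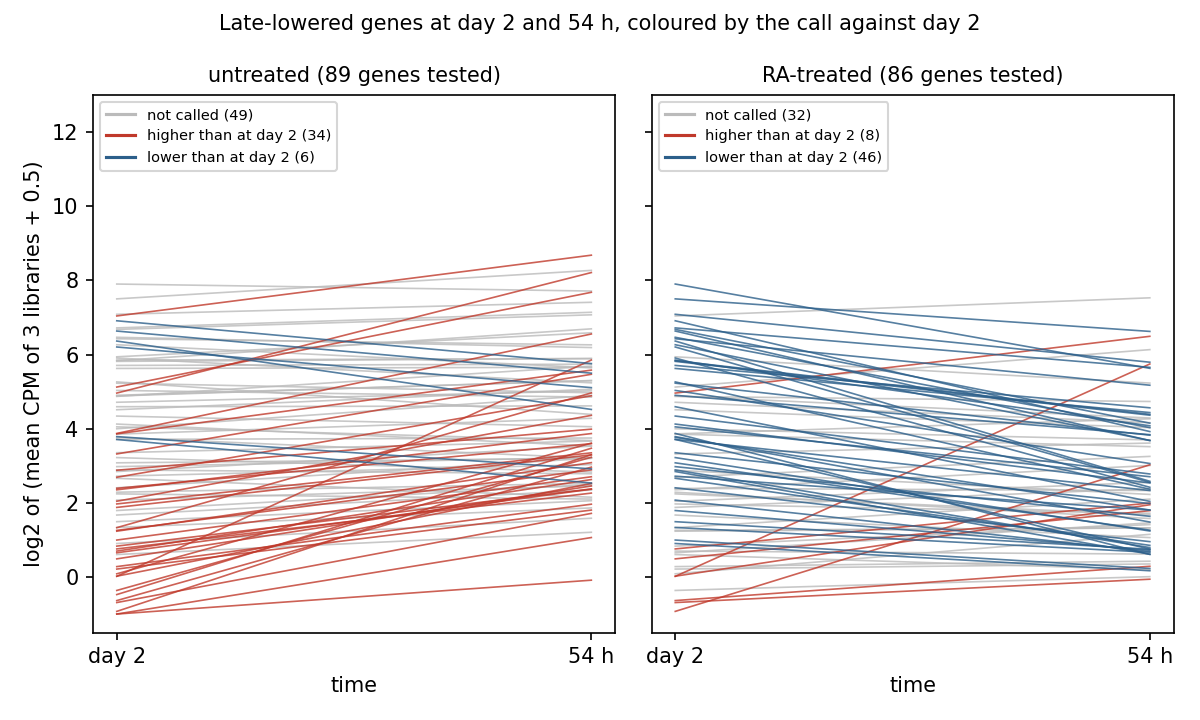
Mean level (log2 of CPM + 0.5, 3 libraries each) of the late-lowered genes at day 2 and at 54 h, each line being 1 gene, for untreated organoids (left, 89 genes) and RA-treated organoids (right, 86 genes tested), coloured by the call of that comparison. On the left 34 lines are called higher and 6 lower, and on the right 8 higher and 46 lower.

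Pathway lists that hold late-lowered genes were looked at as a whole, beside the 5.99% of all genes that were lower and the 7.17% that were higher at 54 h. In the list of glycolysis and hypoxia genes, which holds Ddit4 and Car12, 12 of 31 were lower at 54 h and 1 higher, with a median log2 fold change of -0.84 against 0.00 over all genes; the list stood at 7 lower and 0 higher at 42 h and 1 lower and 1 higher at 30 h. Its lower genes included Ldha, which makes lactate, at -1.52 ± 0.30 (edgeR adjusted p = 0.0016), the glycolytic Pgk1 at -1.12 ± 0.18 (adjusted p = 3.9e-04) and the mitophagy receptor gene Bnip3 at -1.75 ± 0.31 (adjusted p = 8.0e-04). The hindbrain and spinal list had 8 of 26 genes lower at 54 h, Egr2 and Nkx1-2 among them, and 8 higher. Of 58 genes of the Wnt list, which holds Sfrp1, 6 were lower and 15 higher, and of 75 matrix and adhesion genes, with Ncan, Cdh13 and Cdh20, 10 were lower and 19 higher. Of 21 ventral and floor plate genes, 2 were lower and 13 higher, and of 25 dorsal and roof plate genes, 7 and 13. Of 25 forebrain and eye field genes, 4 were lower and 8 higher, and of 63 axon guidance genes, 8 and 16. In each list the late-lowered genes are among those called lower at 54 h, so the counts depend in part on how these genes were chosen. These lists were drawn up with earlier results of the data known.

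Markers of other cell states moved at the same time. Among 8 pluripotency markers, 2 were lower with RA at 54 h and 0 higher, and their summed level was 769 to 875 CPM without RA and 174 to 314 CPM with RA; at 78 h it was 488 to 598 CPM and 336 to 576 CPM, with the ranges overlapping. All 8 were above 1 CPM in some library, and none of the late-lowered genes is among them. Of the trophoblast markers, 5 of 6 tested were higher and 1 lower at 54 h, with sums of 31.7 to 35.9 CPM and 127 to 138 CPM, and Elf5, Prl3d1 and Tpbpa stayed below 1 CPM. The part of these shifts in the levels of the late-lowered genes was not tested.

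Exons of 20 late-lowered genes overlap a gene on the opposite strand. Per the paper the libraries were made with a directional kit, but the strand setting of the counting is not given in the sources used here. Whether reads of the 2 genes were told apart is therefore not known. In 4 cases (Garem2, Tmem88, Sned1 and Gng3) the overlapping gene had over 1000 counts in some library. Cabp7 overlaps Zmat5 and Sycp3 overlaps Chpt1, which had at most 843 and 849 counts in any library.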

How the data were processed

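RNA of 45 organoid libraries was sequenced, 3 for each of 15 conditions. The authors deposited counts per gene, which are raw reads per gene without normalization. Per the labels and the paper, the reads were trimmed with Trim Galore 0.5.0, freed of abundant sequences with Bowtie2 2.3.4.1, aligned to GRCm38 with STAR and counted with featureCounts (Subread 1.6.2); strand and multi-mapping settings are not given in the sources used here. Columns were matched to samples by the library number in the titles.

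Levels are CPM by library total. Tests were computed from the counts with edgeR 4.0.16 in R 4.3.3 (TMM, filterByExpr with minimum count 10 and minimum total 15, glmQLFit and glmQLFTest), fitted on all genes of the libraries compared and adjusted over all genes tested (Benjamini-Hochberg). The study used DESeq2, which is an alternative here (DESeq2 1.42.0). SE is the log2 fold change divided by the square root of F. Groups came from the sample titles. The 45 replicate pairs differed by more than sampling noise (mean chi-square per gene at least 1.97) and were kept as separate samples. The measure was 87.7 and 109.6 for the pairs with RA 30 h replicate 2. It was 41.5 and 44.4 for the pairs with RA 8 h replicate 3, and at most 14.8 for all other pairs. Same-numbered replicates were not treated as pairs, since the labels do not say that a number marks a shared culture.

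Named genes were the 10 with the highest untreated level at 78 h, the 10 lowest at 54 h among those called with no overlap, the 5 highest at 54 h and any called higher, members of the pathway lists, and genes next to the thresholds; any other name was chosen after its values were seen. Some genes that this rule names are not reported here. The genes, lists and roles were chosen with earlier results of these data known. Alternatives were RLE size factors, library totals, no filter, at least 10 counts in every library, DESeq2, one fit of all 45 libraries, an adjusted p under 0.05 with no minimum fold, the replicate block, the library series as a term, each library left out, and other settings of the rule; the earlier library series alone at 30 h was added after seeing the data. On simulated data with 200 changed genes, edgeR recovered 100% at 54 h (16413 genes run, 1 false call). For the interaction it recovered 98% (17605 genes run, 0 false calls). The simulation gave all genes the same dispersion and had no outlying library or batch, so these rates do not carry over to the real libraries. Gene positions are those of GENCODE on GRCm38, and a later annotation than the authors' may place overlaps differently.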

Additional observations from a re-analysis of the deposited data

Results flagged for a closer look

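The effect of RA was lower at 54 h than at 30 h for 33 of the 89 late-lowered genes by the interaction test in edgeR. The same was called for 37 of the 142 genes already lower at 8 h or 18 h. All 4 genes that were called higher with RA at 30 h are among the 33. Their differences on the log2 scale (54 h minus 30 h) were -6.61 for Angpt1, -2.82 for Atp2b4, -4.90 for Me3 and -3.42 for Prss23. The values of Angpt1 and Me3 rest on 4 and 3 untreated counts at 30 h, so their size is uncertain. Angpt1 and Atp2b4 were called higher at 30 h and lower at 54 h. Prss23 and Me3 were called higher at 30 h and were not called at 54 h. The libraries of those times also differed in their Y-linked levels, as given above.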

How the results depend on the processing

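The counts of late-lowered genes at 42 h and 54 h and against day 2 changed little with the normalization or the tool. Those at 54 h and against day 2 also changed little with the library series. At 42 h all libraries were of the earlier series, so no series term was fitted there. The count lower at 30 h went from 16 to 7 with the library series as a term, and the count whose effect was lower at 54 h than at 30 h from 33 to 13; without the filter the latter was 55 and in one fit of all 45 libraries 56. When the threshold was an adjusted p of 0.05 without a fold limit, 36 genes were lower at 30 h, 54 had the interaction, 55 were higher and 20 lower in untreated organoids than at day 2, and 16 were higher with RA than at day 2. Requiring at least 10 counts in every library gave 5 genes higher with RA than at day 2 and 2 higher at 30 h, where the library series as a term gave 1. The earlier library series alone, an alternative chosen after seeing the data, gave 22 lower genes at 30 h. The cause of these shifts was not tested. Leaving out each library in turn gave 8 to 23 lower genes at 30 h, 59 to 62 at 42 h and 76 to 80 at 54 h, 16 to 58 for the interaction, 1 to 6 higher genes at 30 h (6 without RA 30 h replicate 2; 2, 2 and 1 without untreated 30 h replicates 1, 2 and 3) and 1 to 2 at 42 h, the lower value without untreated 42 h replicate 3. With 3 libraries in each group, a fit without 1 of them rests on 5.

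The rule gave 155 genes with a late threshold of -0.8 and 55 with an untreated level of 10 CPM or more at 78 h, where it gave 89 as stated; with TMM-normalized CPM it gave 86, of which 74 were among the 89. Leaving out each library of 8 h, 18 h, 66 h and 78 h gave 73 to 99 genes, the ends being RA 8 h replicates 2 and 3. Library totals in place of TMM moved the all-gene median of the log2 fold changes from 0.04 to 0.18 at 30 h and from 0.02 to 0.18 for RA 54 h against day 2. With the replicate number as a block, 15, 58 and 80 genes were lower at 30 h, 42 h and 54 h, 22 had the interaction and 3 were higher at 30 h; same-numbered libraries did not deviate together throughout (correlations of -0.25 to 0.15), so the numbers were not taken as pairs. Of 1805 checks of single genes, 0 reversed, 44 lost their call and 4 gained one.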
